A study of Sus scrofa with 48 samples.

Results

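Myosin heavy chains are the motor proteins of the muscle fibre, and the chain that a fibre carries sets how fast it contracts. MYH7 encodes the slow chain of type I fibres, which are oxidative and resist fatigue, and the same chain works in the ventricle of the heart. MYH2, MYH1 and MYH4 encode the fast chains of type IIa, IIx and IIb fibres, in the order of increasing speed and increasing reliance on glycolysis. Unlike human muscle, the locomotor muscle of pigs transcribes MYH4 at a high level. In the Sscrofa11.1 gene table MYH4, MYH1 and MYH2 lie next to each other on 1 chromosome, with no other listed gene between them, and MYH7 lies on another chromosome.

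The myosin heavy chains of the fibre types were followed in gluteus medius (GM), liver and kidney of 16 F2 pigs, with 1 array per pig and tissue and 48 arrays in all. The grandsires of the 8 F2 E pigs were F0 boars whose standard diet had been supplemented with methylating micronutrients (methionine, choline, betaine, vitamin B6, vitamin B12 and folate), and those of the 8 F2 C pigs were F0 boars on the standard diet alone. The F1 boars and the F2 pigs of both lines received standard diets, so the lines differ by descent, and because only a few boars stood behind each line, diet and family cannot be told apart. Each line had 4 barrows, which are males castrated soon after birth, and 4 females, all Swiss Large White pigs slaughtered at a like body weight. Replicate numbers are those of the labels of each tissue. In F2 C a number names the same pig in every tissue, but F2 E replicates 4 to 8 are different pigs in GM, liver and kidney.

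The members were all probes whose accession belongs to MYH1, MYH2, MYH4 or MYH7 in RefSeq: 11 probes on 15 spots, of 2628 probes that RefSeq names and 43603 probes on the array, and 4 of 1862 named genes. MYH1 had 5 probes, MYH2 had 1 probe (5 spots), MYH4 had 3 and MYH7 had 2. A further 4803 probes carry Ensembl transcript accessions that the tables used here do not tie to genes. The 4 chains have closely similar sequences, and how far each probe tells them apart was not tested here. Values are quantile-normalized log2 signals of the median pixel, so a difference of 1 is a 2-fold ratio, and the level of 1 probe cannot be set against that of another.

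The label of the muscle arrays was checked against genes fixed for the tissue. Of 9 probes of skeletal muscle genes, 8 were higher on every GM array than on every liver and kidney array, as were 6 of 7 liver probes and 2 of 2 kidney probes in their own tissue. The exception in muscle was a probe of MYOG, a regulator of muscle differentiation. The F2 C arrays of GM measured dim probes more often: they had 23491 to 28754 spots well above background with a median of 25485, and the F2 E arrays 18948 to 25728 with a median of 21442. Over the 16 pigs no relation of this depth to MYH7 passed (r = 0.01, permutation p = 0.956, rho = -0.02, permutation p = 0.944, r = -0.35 without the 2 pigs of most unusual depth, 0.15 in the lower and -0.44 in the upper series). Of 4 relations of this kind computed with depth or ALB, the lowest adjusted permutation p was 0.495 for r and 0.345 for rho. All 11 member probes were well above background on 16 of 16 GM arrays, no spot was saturated, and no member spot in GM was marked as an outlier.

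All 4 chains were abundant in GM, and they differed most in how much they varied between pigs. The 4 bright MYH1 probes and the MYH4 probe A_72_P070086 ranked between 1 and 13 among all probes of an array, and they stood at between 69.5% and 97.9% of the brightest spot of their array. Their within-line SDs were 0.03 to 0.08, against a median within-line SD of 0.29 over 25282 probes. Quantile normalization gives the same values to the top ranks of every array, and with the signals scaled to the 75th percentile of each array the SDs of these 5 probes over the 16 pigs were 0.27 to 0.31. Differences in the most abundant chains can thus be held down in these values. In whole muscle, fewer fibres of a type and less RNA per fibre cannot be told apart.

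MYH7 varied most. Its brighter probe A_72_P223897 had log2 signals with a lowest value of 15.62, a median of 17.76 and a highest value of 18.60 over the 16 pigs, a 7.88-fold range. Its dimmer probe A_72_P325943 went from 12.96 to 18.15, a 36.3-fold range. One pig, F2 C replicate 8, set both low ends, and without it the ranges were 4.49-fold and 13.9-fold. The dimmer probe thus spread wider, but both put the pigs in nearly the same order (r = 0.97, rho = 0.96 over 16 pigs of 1 gene, and a slope of 1.51). The within-line SDs of both probes, 0.88 and 1.38, were larger than those of 98.6% and 99.6% of the 25282 probes measured on all GM arrays.

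The fast chains varied less, and which probe was read mattered. MYH2 (A_72_P303294) had a lowest value of 17.67, a median of 18.39 and a highest value of 18.78. For MYH4, the bright probe A_72_P070086 spanned 18.68 to 18.98, A_72_P326003 spanned 17.43 to 18.95 and the dimmer A_72_P337159 spanned 15.39 to 18.33, a 7.66-fold range (4.14-fold without F2 C replicate 3). One female, F2 C replicate 3, was the lowest pig on all 3 MYH4 probes, and the same pig had the highest value on both MYH7 probes and on MYH2. The fifth MYH1 probe, A_72_P322633, was dim and spanned 12.25 to 14.04. It did not follow the bright MYH1 probes (r between -0.28 and 0.48).

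**Figure D1:**
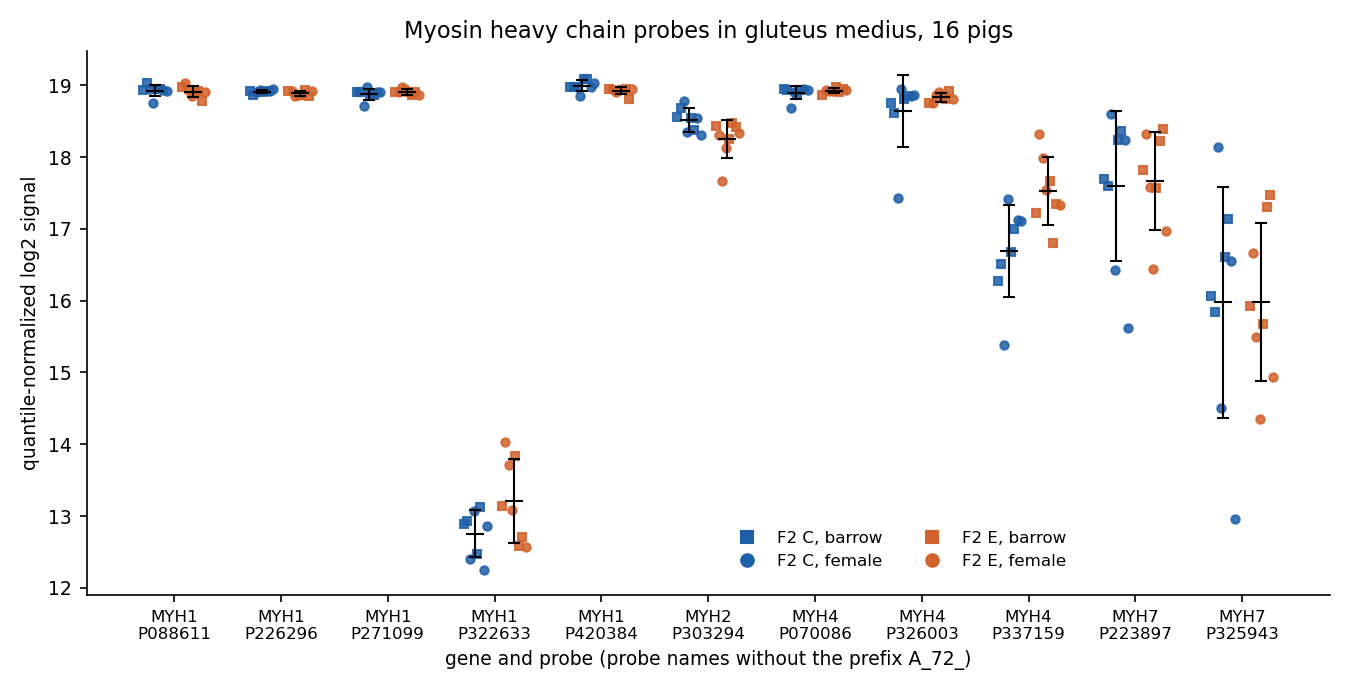
Quantile-normalized log2 signal (y axis) of the 11 myosin heavy chain probes (x axis) in GM of 16 pigs; squares are barrows, circles are females, and black bars give the mean and SD of the 8 pigs of a line. The bright MYH1 and MYH4 probes lie within a narrow band near 19, while MYH7 probe A_72_P325943 runs from 12.96 to 18.15, and the 2 lines overlap on every probe.

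The first comparison was of the lines. None of the 11 member probes passed an adjusted p of 0.05 in limma with Benjamini-Hochberg adjustment, against 0.761% of the 25626 probes tested. With an unadjusted p below 0.01, 1 member was called, against 5.71% of all probes, and this was MYH4 probe A_72_P337159. F2 E and F2 C overlapped on every member probe, and 0.403% of all probes measured on the 16 arrays had lines that did not overlap.

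MYH7 had nearly the same mean in both lines. On A_72_P223897 the F2 C pigs had a lowest value of 15.62, a median of 17.96 and a highest value of 18.60, and the F2 E pigs 16.44, 17.70 and 18.39. The F2 C mean was 17.60 ± 1.05 and the F2 E mean 17.66 ± 0.68 (SD, n = 8 each), a difference of 0.07 (SE 0.39, limma adjusted p = 0.95). On A_72_P325943 the F2 C pigs had a lowest value of 12.96, a median of 16.31 and a highest value of 18.15, and the F2 E pigs 14.35, 15.80 and 17.47, with the same mean of 15.98 (limma adjusted p = 1.00). Because the pigs of a line differed so much, the 95% interval of the first difference reached from 0.594-fold to 1.85-fold. That of the second reached from 0.415-fold to 2.40-fold. The values are compatible with differences within these unadjusted bounds, and larger ones could also go uncalled after the adjustment.

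For MYH4, the dimmer probe had the largest line difference of all members, which did not pass the adjustment. On A_72_P337159 the F2 C pigs had a lowest value of 15.39, a median of 16.83 and a highest value of 17.42, and the F2 E pigs 16.81, 17.45 and 18.33. The mean was 16.69 ± 0.64 in F2 C and 17.53 ± 0.47 in F2 E (SD, n = 8 each), and 7 of 8 F2 E pigs lay above the F2 C median. The difference of 0.84 (SE 0.25, 1.79-fold) had a limma p of 0.00374 and an adjusted p of 0.120, and exchanging the 16 pigs between lines gave p = 0.00591 (exact permutation, two-sided). Over the 16 pigs its relation to the number of spots above background was r = -0.31 (permutation p = 0.248, rho = -0.33, permutation p = 0.211, r = -0.26 without the 2 pigs of most unusual depth, -0.62 in the lower and -0.35 in the upper series). The other 2 MYH4 probes differed by 0.03 and 0.19 (limma adjusted p = 0.871 and 0.594).

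Each GM slide held 4 pigs of 1 line and 1 of 2 series of pig numbers (lower or upper numbers in the labels), so slide and line can be told apart only through the 2 slides of a line. With the slide as a random block the adjusted p of A_72_P337159 was 0.722. Its difference was 0.28 in the lower series (exact permutation p = 0.171, n = 4 against 4) and 1.40 in the upper series (exact permutation p = 0.0571), where the smallest p that 4 against 4 allows is 0.0286. The test of the difference between the series gave 1.12 (SE 0.46, limma adjusted p = 0.142), against 7.04% of all probes called in that test. F2 C replicate 3, the pig with the lowest MYH4, belonged to the upper series. Without that pig the difference was 0.66, the lowest value when each pig was left out in turn, and the highest was 0.95.

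MYH2 had a lower mean in F2 E, by less than the adjusted test could call. The F2 C pigs had a lowest value of 18.30, a median of 18.54 and a highest value of 18.78, and the F2 E pigs 17.67, 18.32 and 18.47. The mean was 18.52 ± 0.17 in F2 C and 18.25 ± 0.26 in F2 E (SD, n = 8 each), and 0 of 8 F2 E pigs lay above the F2 C median. This difference of -0.27 (SE 0.12) did not pass the adjustment (limma p = 0.0342, adjusted p = 0.271), although the exact permutation test over 16 pigs gave p = 0.0154. It was -0.10 in the lower series and -0.43 in the upper series (exact permutation p = 0.371 and 0.0571). Over the 16 pigs the relation of MYH2 to the number of spots above background was r = 0.23 (permutation p = 0.389). By rank it was rho = 0.44 (permutation p = 0.0862, adjusted permutation p = 0.345). The r was 0.13 without the 2 pigs of most unusual depth, 0.57 in the lower and 0.19 in the upper series. Across all probes, 16.1% had an unadjusted limma p below 0.05. With the slide as a random block no member probe had a limma adjusted p below 0.722.

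The bright MYH1 probes differed between the lines by -0.07 to 0.03 (limma adjusted p of 0.653 to 0.941), and 3 of the 4 differences were below 0. With each array scaled to its 75th percentile all 4 were above 0, at 0.14 or more, and none was called, so no direction can be given for them. The dim MYH1 probe A_72_P322633 had 12.75 ± 0.33 in F2 C and 13.21 ± 0.59 in F2 E, a difference of 0.46 (SE 0.22, limma adjusted p = 0.306). Its lines overlapped in the lower series (0.06, exact permutation p = 0.8) and not in the upper series (0.86, exact permutation p = 0.0286, the smallest possible), where 17.6% of all probes had lines that did not overlap. The bright probe A_72_P420384 had lines that did not overlap in the lower series (-0.13, exact permutation p = 0.0286), where the share over all probes was 11.6%.

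**Figure D2:**
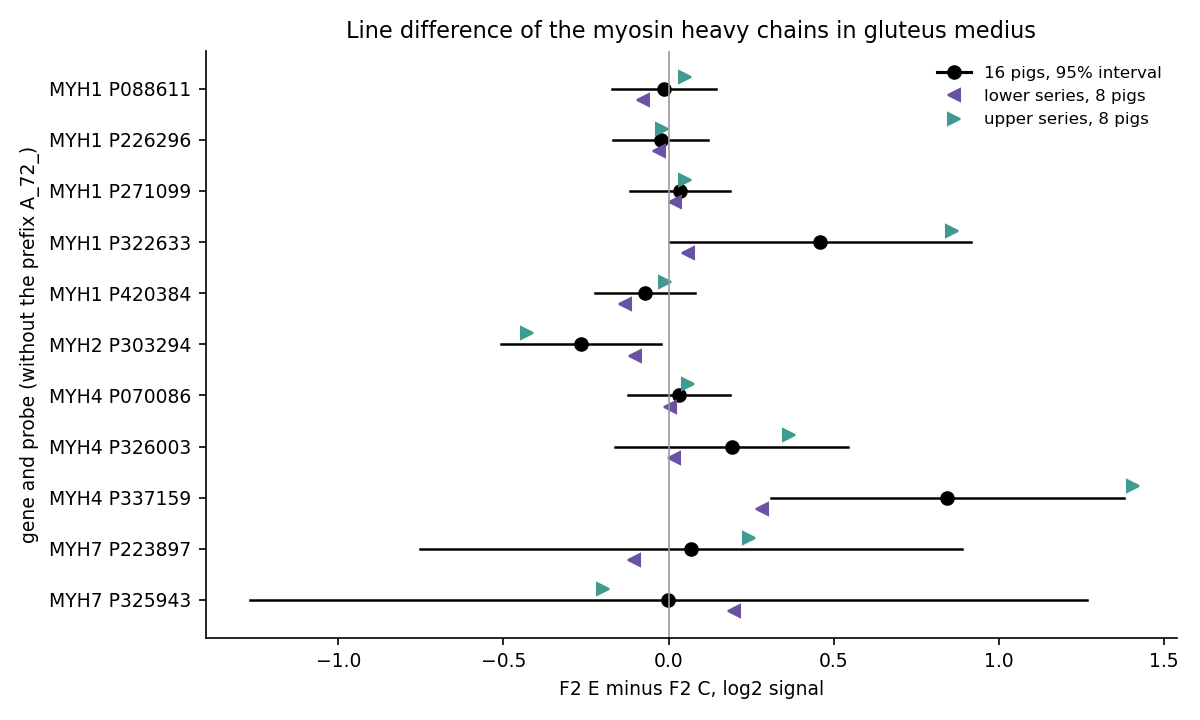
Difference of F2 E minus F2 C in log2 signal (x axis) for each myosin heavy chain probe in GM (y axis); black points and lines are the estimate over 16 pigs and its 95% interval, and triangles are the differences within the lower and the upper series of pig numbers. The intervals of both MYH7 probes are wide and centred near 0, and MYH4 probe A_72_P337159 has the largest difference, 0.84.

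Next, barrows were compared with females. MYH7 spread more among females. On A_72_P223897 barrows ranged from 17.57 to 18.39 (mean 17.98 ± 0.35, SD, n = 8) and females from 15.62 to 18.60 (17.27 ± 1.08), so that the barrows lay within the range of the females. The difference of barrow minus female was 0.71 (SE 0.36, limma p = 0.0676, adjusted p = 0.998, exact permutation p = 0.0998), and on A_72_P325943 it was 1.05 (SE 0.57, limma p = 0.0802, adjusted p = 0.998). On the same GM arrays 6 probes of the liver genes ALB, SERPINA1, TTR and APOA1 were compared by sex. The mean was higher in barrows for 5 of them and lower for APOA1 (-0.20). The second ALB probe, A_72_P165481, differed by 2.40 (limma adjusted p = 0.103), and SERPINA1 and TTR did not pass (limma adjusted p = 0.998). Only 1, ALB probe A_72_P175281, was called (difference 1.85, SE 0.34, limma adjusted p = 0.0310). Barrows had 6.86 to 9.44 on it and females 5.70 to 7.65, and 7 of 8 barrows lay above every female. The log2 of the summed signal of the 6 probes had a median of 12.17 and a highest value of 13.46 in barrows, and 11.11 and 11.57 in females. The part of this in the MYH7 difference was not tested. None of the 11 member probes was called for sex, against 0.121% of all probes, none had an unadjusted p below 0.05, against 3.86%, and none was called for an interaction of line and sex (limma adjusted p of 0.992 or more), against 0% of all probes, of which 3.46% had an unadjusted p below 0.05.

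The balance of fast to slow chains was computed for each pig as the mean log2 signal of MYH1, MYH2 and MYH4 minus that of MYH7, with the brightest probe of each gene. Since probes have their own scales, the balance of 1 pig has no meaning by itself, and only differences between pigs were read. It had a lowest value of 0.22, a median of 0.92 and a highest value of 3.14, a range of 2.92, and the pigs at the 2 ends were both F2 C females, replicates 3 and 8. The 4 pigs with the highest balance were F2 C replicates 8 and 4 and F2 E replicates 4 and 8, all females, and 2 came from each line.

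With these probes, nearly all of this spread came from MYH7. The mean of the fast chains ranged over only 0.37, from 18.50 to 18.86, against 2.98 for MYH7. The balance had a correlation of -0.99 with MYH7, which is a part of it, over the 16 pigs. Quantile normalization can hold down differences of the MYH1 and MYH4 probes used here, whose SDs over the pigs were 0.07 each. The dimmer MYH4 probe A_72_P337159, not used in this balance, had a 7.66-fold range, against 7.88-fold for MYH7 probe A_72_P223897. The mean balance was 1.21 ± 1.01 in F2 C and 1.04 ± 0.67 in F2 E (SD, n = 8 each), a difference of -0.17 (SE 0.43), which is well within the spread between pigs. With the dimmest probe of each gene, a choice made after the values were seen, the difference was 0.35 (SE 0.74), so its sign depends on the probe. Barrows had 0.80 ± 0.36 and females 1.44 ± 1.06 (SD, n = 8 each).

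**Figure D3:**
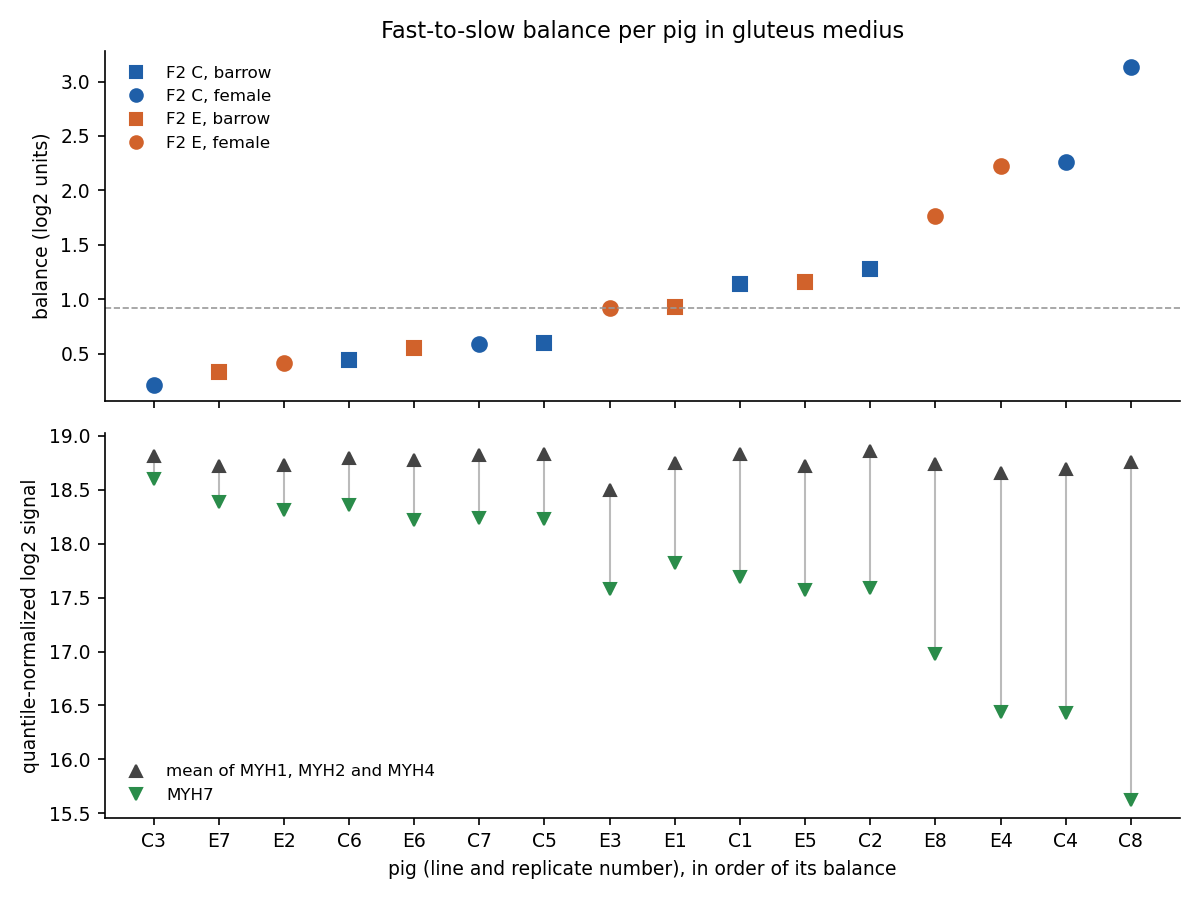
Upper panel: balance of fast to slow chains in log2 units for each of 16 pigs, in order of the balance, coloured by line and shaped by sex, with the median as a dashed line. Lower panel: the mean log2 signal of MYH1, MYH2 and MYH4 and that of MYH7 in the same pigs, with the brightest probe of each gene. The mean of the fast chains stays between 18.50 and 18.86 while MYH7 falls from 18.60 to 15.62.

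The chains were then compared with each other over the 16 pigs, in 6 pairs of genes. With the brightest probe of each gene no pair passed the adjustment over the 6 pairs. The largest r was that of MYH2 and MYH4 (r = -0.38, permutation p = 0.120, rho = -0.16, permutation p = 0.558). It was -0.11 without the 2 pigs that lay farthest from the MYH2 median. By rank the largest relation was that of MYH2 and MYH7 (rho = 0.55, permutation p = 0.0317, adjusted permutation p = 0.163). Their r was 0.37, and 0.48 without the same 2 pigs.

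With the dimmest probe of each gene, a choice made after the values were seen, MYH4 and MYH2 ran against each other. Their r was -0.77 (permutation p = 0.00127, adjusted p = 0.00762) and their rho -0.85 (permutation p = 6e-05, adjusted p = 0.00036). The r was -0.85 within F2 C and -0.57 within F2 E, -0.73 and -0.78 within the lower and the upper series, and -0.75 without the 2 pigs farthest from the MYH2 median. The dim MYH1 probe rose with MYH4 (r = 0.69, adjusted permutation p = 0.00786, rho = 0.64, adjusted permutation p = 0.0254) and fell with MYH2 (r = -0.63, adjusted permutation p = 0.0175, rho = -0.62, adjusted permutation p = 0.0254). Its r with MYH4 was 0.36 within F2 C and 0.86 within F2 E, and 0.35 and 0.94 within the lower and the upper series. With MYH2 it was -0.55 and -0.49 within the lines and -0.79 and -0.72 within the series. Over all pigs both were 0.55 and -0.76 without the 2 pigs farthest from the median of that MYH1 probe. MYH7 was related to none of the fast chains by r, and to MYH2 by rank (r = 0.45, adjusted permutation p = 0.122, rho = 0.59, adjusted permutation p = 0.0260).

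The other genes of fibre type were taken from lists. Of 17 slow fibre genes, 8 were named and measured in GM, of 12 fast fibre genes 6, of 14 regulators of fibre type 7, and of 10 other myosin heavy chains none. Each gene was read on 1 probe, although TPM3 and MEF2C had 3 present in GM and CD36, MEF2A and NFATC1 had 2. None of the 21 measured list genes was called for line or for sex after adjustment, where 0.634% of 1419 named genes were called for line and 0 for sex. The median line difference was -0.06 over the 8 slow genes, 0.02 over the 6 fast genes and 0.22 over the 7 regulators, against -0.01 over the 1419 named genes measured on all GM arrays. The median difference of barrow minus female was 0.82 over the slow genes, against 0.05 over all named genes.

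Most of the 8 slow fibre genes measured followed MYH7 from pig to pig, on a list chosen with earlier results of these data known. Of the 8, 7 had an r above 0 with MYH7 and the median r was 0.85, against 51.2% of the 1419 named genes above 0 and a median r of 0.01. TNNI1 and TNNT1 encode the slow forms of the troponin subunits that inhibit contraction and bind tropomyosin, and TNNI1 was the gene most like MYH7 among all named genes (r = 0.96, rho = 0.96, n = 16). It ranged from 10.65 to 16.38 over the pigs, a 53.1-fold range. The next most alike were TNNT1 (r = 0.93, rho = 0.94), MYL2, the regulatory light chain of slow and ventricular muscle (r = 0.89, rho = 0.88), TPM3, which encodes slow tropomyosin (r = 0.88, rho = 0.95), and TNNI3 (r = 0.88, rho = 0.93). These r are the highest of many, so no p is given. They were 0.79 to 0.92 without the 2 pigs farthest from the MYH7 median, and with the dimmer MYH7 probe TNNI1 had r = 0.99. The line differences of these 5 probes were -0.53 to 0.19, with limma adjusted p of 0.662 or more. TPM3 had 3 probes present in GM, and only the one read here was among the 10 named probes most like MYH7.

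TNNI3 is the troponin inhibitor of the heart, and its 4 probes had r of 0.63 to 0.88 to MYH7 in GM. On the scale of all 48 arrays its probe A_72_P161906 stood at 9.51 to 13.50 in GM, at 9.90 to 11.85 in liver and at 12.45 to 14.40 in kidney, so it was not a muscle signal alone. The heart hormone NPPA was well above background on 2 of 16 GM arrays. Probes of adipocyte genes had r of -0.19 to 0.18 to MYH7, those of connective tissue -0.10 to 0.03, those of vessels -0.24 to 0.37 and those of liver -0.11 to 0.38. No probe of these lists was called for line in GM, against 0.761% of all probes. The liver gene ALB varied over the GM arrays from 7.23 to 13.03, and its relation to MYH7 did not pass (r = 0.35, permutation p = 0.185, rho = 0.20, permutation p = 0.465). The r was 0.48 without the 2 pigs farthest from the ALB median, and 0.31 and 0.45 within the lower and the upper series.

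1 slow gene had an r below 0, which rests on 2 pigs. PPARGC1A, a coactivator of mitochondrial genes that promotes the oxidative fibre type in mouse models, had r = -0.45 to MYH7, and its 16 values ran from 10.28 over a median of 11.37 to 15.68. F2 C replicate 8 and F2 E replicate 8 had 15.33 and 15.68, all others 13.58 or less, and without these 2 pigs, left out after their values were seen, r was 0.24. The calcium pump ATP2A2 and the fatty acid transporter CD36 had r of 0.16 and 0.22.

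The fast fibre genes varied little in these values. TNNT3, the fast troponin that binds tropomyosin, had r = -0.69 to MYH7, with an SD of 0.06 over the 16 pigs. The fast light chain MYLPF and the fast troponin inhibitor TNNI2 both had r = -0.47, and TNNC2, MYL1 and MYOZ1 lay between -0.10 and 0.09. The median r of the 6 was -0.29, and their log2 signals lay between 17.63 and 19.15, where the bright MYH1 probes also lay. At these levels quantile normalization can hold down differences, and the value of a probe depends on its rank among the brightest. F2 C replicate 3, with the highest MYH7, had the highest TNNT1, 19.15, and the lowest TNNT3, 18.93. The part of such ranks in the r of TNNT3 was not tested. Among the regulators, the calcineurin target NFATC1 had r = -0.60 to MYH7, the nuclear receptor PPARD -0.52 and the calcineurin subunit PPP3CA -0.46, while MEF2A, MEF2C and the kinase subunit PRKAA2 lay between 0.00 and 0.23. The r of NFATC1 rests on replicate 8 of each line, which had 10.83 and 10.77 where the other 14 pigs had 7.55 to 8.67, and without them it was -0.06. The PPARD probe was near the floor of the array, at 5.17 to 5.79. Without the 2 pigs farthest from the MYH7 median its r was -0.23, and that of PPP3CA was -0.44.

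**Figure D4:**
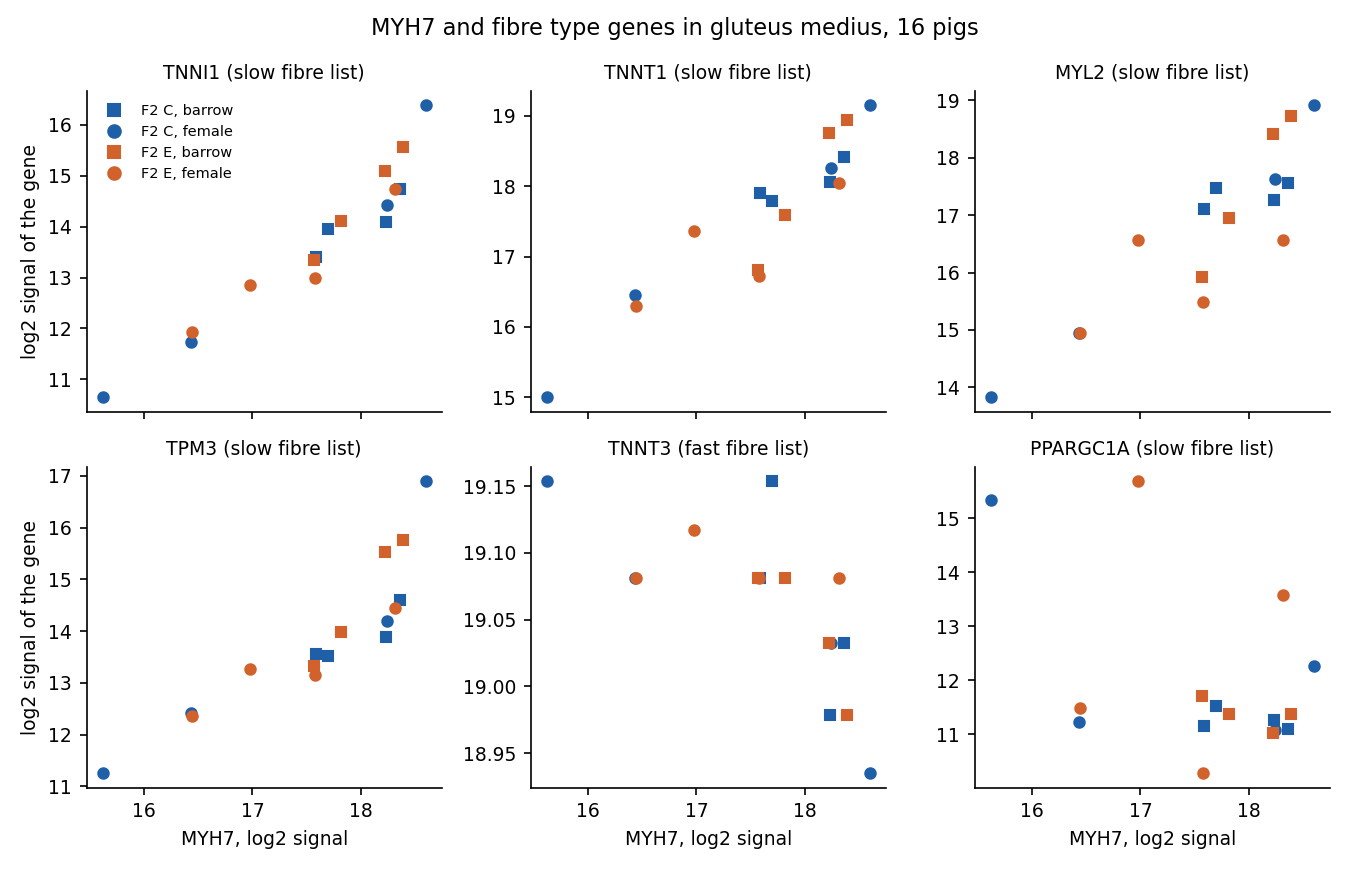
Log2 signal of 6 fibre type genes (y axes) against that of MYH7 probe A_72_P223897 (x axes) in GM of 16 pigs, coloured by line and shaped by sex. TNNI1, TNNT1, MYL2 and TPM3 rise with MYH7 in both lines, and PPARGC1A stands highest in 2 pigs, replicate 8 of each line. TNNT3 tends to be lower where MYH7 is higher, between 18.93 and 19.15, where quantile normalization can hold down differences.

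The genes most like the fast chains were of other kinds. For MYH2 the 5 most alike probes were 3 of LOC733637, 1 of FTH1, the ferritin heavy chain, and 1 of LDHB, the lactate dehydrogenase subunit of oxidative tissues (r of 0.75 to 0.80, and 0.50 to 0.67 without the 2 pigs farthest from the MYH2 median). For the bright MYH4 probe they were AMPD1, the AMP deaminase of muscle, RABGGTA, ARSA, AHCY and POLR3A (r of 0.64 to 0.81). These r fell to 0.05 to 0.37 without the 2 pigs farthest from the MYH4 median, F2 C replicates 3 and 5, so they rest on those pigs. For the bright MYH1 probe A_72_P420384 they included ADAMTS1, HCRT, AK3 and HSPH1 (r of 0.65 to 0.68), for a chain whose SD over the pigs was 0.07. For the dim MYH4 probe, taken after its values were seen, the most alike was MYBPH, a myosin-binding protein (r = 0.84, rho = 0.88), which ranged 31.9-fold over the pigs.

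Finally, the tissues were compared with all 48 arrays normalized together and the pig as a random block. All 11 member probes were higher in GM than in liver and than in kidney (limma, adjusted p below 0.05), where 35% and 35.2% of 34502 probes were. On every probe the lowest GM array lay above the highest liver or kidney array. The smallest such gap was 5.54, for the dim MYH1 probe A_72_P322633 in liver.

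The folds were large. MYH7 on A_72_P223897 had a mean of 17.75 ± 0.74 in GM, 7.09 ± 0.76 in liver and 6.45 ± 0.26 in kidney (SD, n = 16 each), 1612-fold and 2521-fold lower than in GM. MYH2 had 18.41 ± 0.22 in GM, 5.30 ± 0.17 in liver and 5.31 ± 0.15 in kidney, where it was well above background on 1 and 3 of 16 arrays. MYH4 probe A_72_P337159 was not well above background on any liver array, and GM was at least 3669-fold higher. The same held for MYH1 probe A_72_P226296 in liver, where GM was at least 10676-fold higher.

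Outside muscle the chains were near the floor of the array. In liver 5 of 11 member probes passed the filter on presence, and in kidney 4 did. MYH7 on A_72_P223897 was well above background on 15 of 16 liver arrays and on 16 of 16 kidney arrays, and it was higher in liver by 0.64 (SE 0.21, limma adjusted p = 0.00583). Of the 4 member probes present in both tissues, 3 were called between liver and kidney, all with the higher mean in liver, against 73.7% of probes present in both. Neither in liver nor in kidney was a member called for line (limma adjusted p of 0.721 or more), against 0.0937% and 0.0119% of probes. At an unadjusted p below 0.05 none of these 9 tests was called either, against 8.32% and 3.84% of probes (2.45% and 0.998% at 0.01).

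In kidney, 3 arrays stood apart, named here by the numbers of the kidney labels. F2 C replicate 7 had 11 of 11 member probes well above background and F2 E replicate 6 had 10, against 1 to 6 on the other 14 kidney arrays and 1 to 7 on the liver arrays. Both had 9 of 9 probes of skeletal muscle genes well above background, as did 2 other kidney arrays. F2 E replicate 7 had 2 member probes above background but the highest median of the muscle probes, 7.02. The MYH1 probe A_72_P088611 had its highest kidney value, 7.77, on the F2 E replicate 6 array. Its mean was 5.67 ± 0.39 in F2 C and 5.95 ± 0.88 in F2 E, a difference of 0.28, and without F2 C replicate 7 and F2 E replicate 6, an alternative chosen after the values were seen, the difference was 0.15 (SE 0.20, limma adjusted p = 0.951). Without F2 E replicate 7 as well it was -0.04 (SE 0.11, limma adjusted p = 1.00), so its direction rests on these arrays. Without these 2 or all 3 arrays, 11 of 11 member probes were higher in GM than in kidney, where 34.6% and 34.5% of all probes were. MYH7 on A_72_P223897 was then higher in liver than in kidney by 0.68 and 0.71, and 3 of 4 probes were called in this comparison, against 72.4% and 72.2% of probes.

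**Figure D5:**
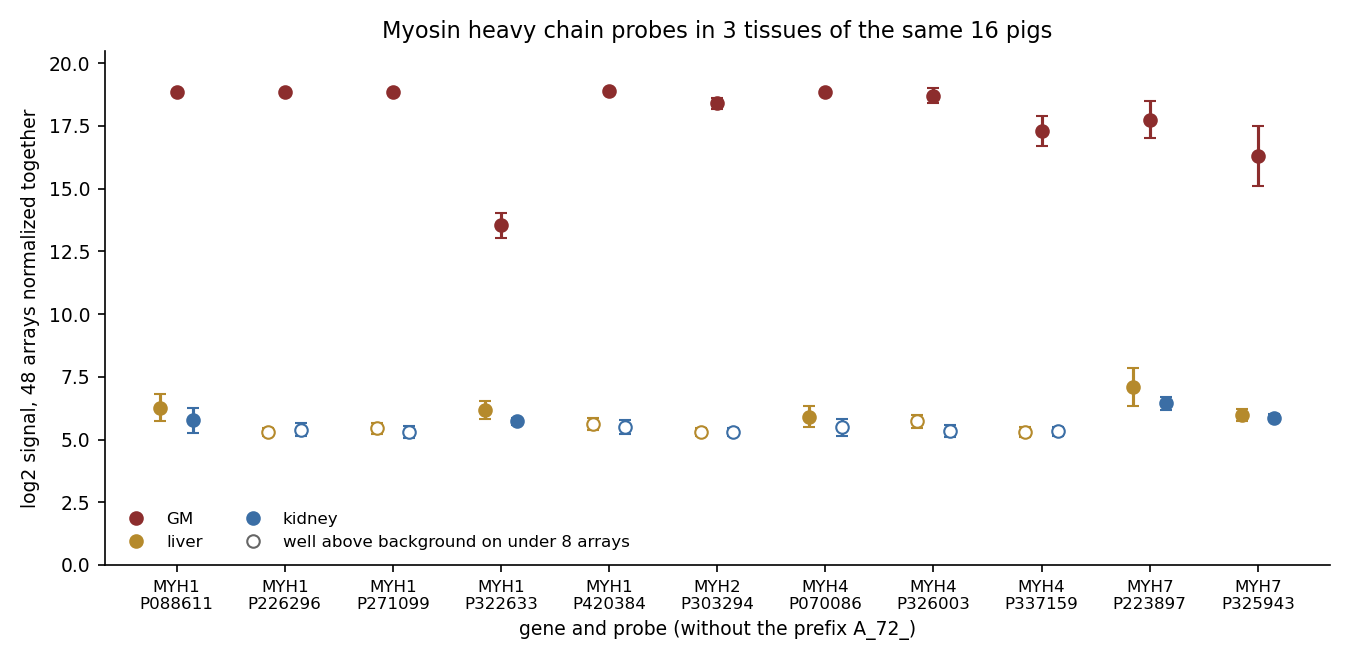
Mean and SD over 16 pigs of the log2 signal (y axis, 48 arrays normalized together) of each myosin heavy chain probe (x axis) in GM, liver and kidney; open circles mark probes well above background on under 8 of the 16 arrays. The GM means lie between 13.54 and 18.91 and the liver and kidney means between 5.30 and 7.09.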

How the data were processed

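Muscle (GM), liver and kidney RNA from 16 F2 pigs was hybridised to 48 one-colour porcine arrays, 1 per pig and tissue. Per the file headers, the deposited scanner intensity values were extracted with Agilent Feature Extraction 10.5.1.1; no genome build is given for the probes in the sources used here. The authors' tables also hold 48 columns of per-array values and their own comparisons (log2 ratios, p-values, false discovery rates), and neither was used.

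The log2 of the median pixel intensity of 43803 spots was quantile-normalized within each tissue, without control spots, in R 4.3.3 with limma 3.58.1. Spots marked as outliers were then left out, and spots of 1 probe were averaged. A probe was tested where at least 50% of the arrays of a line had a signal above 25 and well above background, with at least 2 measured arrays in each line. To compare tissues, all 48 arrays were quantile-normalized as 1 set, and the pig entered as a random block (consensus correlation 0.03). Tests were limma's moderated test with Benjamini-Hochberg adjustment over all probes at 0.05, and exact two-sided permutation tests, for which 16 pigs allow 6435 ways and a smallest p of 0.000155. Correlations were tested with 100000 permutations. These p-values measure the spread between pigs, and the number of arrays limits the precision. Litter is not given in the labels and entered no test, and the exact tests take the pigs as exchangeable. The functions were tested on simulated data.

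Probes were named through RefSeq accessions (gene list of Sscrofa11.1). The members and the gene lists were chosen with earlier results of these data known. Named were all member probes, the list genes with the 3 largest and 3 smallest correlations with the balance, and the 5 probes most like each chain, of which 1 is not reported here; MYBPH and the marker genes with values of their own were named after their values were seen. Alternatives covered signal, background, scaling, filter, marked spots, covariates, blocks, test, probe per gene and each pig left out.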

Additional observations from a re-analysis of the deposited data

Results flagged for a closer look

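Tested were 40 groups of 8 arrays of 1 line and tissue, for member probes that passed the filter on presence there, and 4 groups of the balance. Of these 44 groups, 10 (22.7%) had 1 array whose gap to the nearest other was, as a share of the range of the group, above Dixon's 95% critical value, where chance gives about 1 in 20. The probes of a gene share pigs and arrays, so these groups are not independent.

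In GM, 6 of the groups were flagged, each for an array lower than the rest of its line. F2 C replicate 3, the pig with the highest MYH7, had 17.43 on MYH4 probe A_72_P326003 (others 18.62 to 18.95) and 18.68 on A_72_P070086 (others 18.87 to 18.95). F2 C replicate 4 had 18.75 on MYH1 probe A_72_P088611 (others 18.92 to 19.03) and 18.84 on A_72_P420384 (others 18.98 to 19.08). F2 E replicate 7 had 18.81 on A_72_P420384 (others 18.90 to 18.95). F2 E replicate 3 had 17.67 on MYH2 (others 18.13 to 18.47).

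Among the probes present in liver and kidney, 4 groups were flagged, each for an array higher than the rest of its line. In liver, F2 E replicate 2 had 7.48 on MYH1 probe A_72_P322633 (others 5.97 to 6.60) and F2 C replicate 2 had 7.18 on MYH4 probe A_72_P070086 (others up to 6.38). In kidney, F2 C replicate 7, an array with all member probes above background, had 6.54 on MYH1 probe A_72_P088611 (others up to 5.83), and F2 E replicate 3 had 6.59 on MYH7 probe A_72_P325943 (others 5.82 to 6.10).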

How the results depend on the processing

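None of the 11 member probes was called for line in GM under any of the 16 alternatives that keep or split the pigs or with any of the 16 pigs left out. Over those 16 alternatives MYH4 probe A_72_P337159 stayed above 0, from 0.28 to 1.40, with adjusted p from 0.0669 to 0.722, and MYH2 stayed below 0, from -0.43 to -0.06. The number of probes called over the whole array, 195, moved more: 99 among probes above background on all 16 arrays, 507 with the series of pig numbers as a block, 5 with the slide as a random block, 126 and 56 with the methods' t-test of equal and unequal variances after Benjamini-Hochberg, 347 within the lower and 1080 within the upper series (both splits chosen after the values were seen), and 85 to 193 with 1 pig left out. With the replicate number of the labels as a block it was 49; the numbers do not pair the pigs, since the deviations of same-numbered pigs correlated from -0.16 to 0.33, 2 of 8 pairs were over 0.1, and 4 of 16 pigs correlated best with their own number.

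The sign of small differences turned. The processed signal scaled to the 75th percentile gave 0.24, 0.22 and 0.20 for MYH1 probes A_72_P088611, A_72_P226296 and A_72_P420384 and 0.066 for MYH7 probe A_72_P325943, and the median signal so scaled gave 0.17, 0.16, 0.14 and 0.022. The latter was 0.0023 with all 48 arrays normalized together. Within the lower series MYH7 had -0.11 and 0.20 (A_72_P223897, A_72_P325943), and within the upper series A_72_P088611 had 0.048. With each pig left out, A_72_P088611 went from -0.042 to 0.0043, A_72_P070086 from -0.00017 to 0.039, A_72_P223897 from -0.21 (without F2 C replicate 8) to 0.24 and A_72_P325943 from -0.43 to 0.31. With the dimmest probes, r was -0.63 for MYH1 and MYH2, 0.69 for MYH1 and MYH4 and -0.21 for MYH1 and MYH7, all of opposite sign to the brightest probes, and -0.77 for MYH2 and MYH4, now past the threshold. The causes were not tested.

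The line difference of the balance went from -0.34 to 0.11 with 1 pig left out (0.11 without F2 C replicate 8), and it moved by less than the spread between pigs in every alternative. The differences of GM to liver and to kidney kept direction and call under the 4 alternatives of normalization, signal, marked spots and block, while the difference between liver and kidney was computed again only without kidney arrays. Normexp on the mean signal was not run, because that column is not in the files used, and the median signal took its place. The narrow SDs of the brightest probes and the few arrays above background in liver and kidney limit what could be seen there.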
